A study of Mus musculus with 6 samples.

Results

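Transcripts of B cells and plasma cells were examined in whole mouse kidney after deletion of the transferrin receptor TfR1 (gene Tfrc) by KspCre. The group held 9 genes chosen by name (Cd79a, Cd79b, Ms4a1, Pax5, Cd22, Blk, Fcrla, Mzb1 and Pou2af1), and all 9 were found among the 24422 genes of the count tables. Poly-A RNA was sequenced from 6 kidneys of C57BL/6 mice at postnatal day 60, all fed an iron-sufficient diet of 220 ppm. The 3 controls were wild type, and the other 3 were Tfr1f/f;KspCre, labelled TfR1KO;KspCre and called knockouts here. KspCre is driven by the promoter of Ksp-cadherin, a cadherin of tubular epithelium, and the floxed exons encode the transmembrane domain of TfR1. Whether the controls carried Cre is not given in the sources used here. Whole kidney was sequenced, so for every transcript below a change in the number of cells and a change in RNA per cell cannot be told apart.

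B cells recognise antigen through a membrane immunoglobulin that signals through the paired chains Cd79a and Cd79b. Src-family kinases such as Blk phosphorylate these chains, and Cd22 recruits phosphatases that dampen the signal. Pax5 holds the B cell programme in place, and Pou2af1 is a coactivator of the octamer-binding factors. B cells that become plasma cells secrete antibody, with Mzb1 acting in the endoplasmic reticulum in its assembly. A healthy kidney holds few of these cells, whereas they can gather in inflamed or fibrotic interstitium.

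The libraries held between 11501053 and 21001341 counts, so that 1 count was worth between 0.049 and 0.0765 CPM (counts per 1000000 counted reads, after TMM normalisation). Several libraries stood apart. Knockout 1 lay between the groups on the first principal component, at 9.67 where the controls lay between -72.6 and -53.2 and knockouts 2 and 3 at 88.6 and 82.1. Control 2 held 52 counts of Xist and 3980 of 4 Y-linked genes, where the other 5 libraries held at least 10458 and at most 5. By these genes control 2 read as male and the other 5 as female, while the sample labels give no sex. Sex was thus not balanced between the groups, and values without control 2 are given below. Tfrc gave no check of the labels, at 138.4, 167.7 and 61.9 CPM in controls and 214.2, 85.9 and 40.6 CPM in knockouts. Kidney identity was clear in all libraries, and the summed level of 6 tubule and podocyte markers was between 8220 and 11270 CPM in controls, 7936 CPM in knockout 1, and 2686 and 2005 CPM in knockouts 2 and 3.

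Sequence upstream of the RefSeq start site (table of build GRCm38.p6) was available for 5 of the 9 genes and is shown for the 3 whose window began outside the gene's annotated exons. It is shown so that motifs could be looked for. All 9 genes were highest in the same kidney, as were 23.4% of all genes tested, and shared control was not tested. Each window matched mm9 once, and its bases outside annotated exons lie at chr7:25682266-25682399 (plus strand) for Cd79a, chr1:172857715-172857964 (minus strand) for Fcrla and chr9:51021545-51021794 (plus strand) for Pou2af1. Capitals mark matches, on either strand, to CAGGTG (the E box bound by E2A) and to GAGGAA (the PU box), and each sequence reads 5′ to 3′ in the direction of its gene.
Cd79a: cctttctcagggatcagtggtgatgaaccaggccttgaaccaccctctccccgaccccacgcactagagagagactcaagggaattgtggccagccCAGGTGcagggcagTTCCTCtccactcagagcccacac
Fcrla: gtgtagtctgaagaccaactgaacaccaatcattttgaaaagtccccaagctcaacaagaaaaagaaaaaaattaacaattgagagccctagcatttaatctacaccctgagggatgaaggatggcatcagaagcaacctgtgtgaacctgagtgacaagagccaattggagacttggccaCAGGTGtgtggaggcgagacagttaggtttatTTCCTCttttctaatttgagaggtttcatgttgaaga
Pou2af1: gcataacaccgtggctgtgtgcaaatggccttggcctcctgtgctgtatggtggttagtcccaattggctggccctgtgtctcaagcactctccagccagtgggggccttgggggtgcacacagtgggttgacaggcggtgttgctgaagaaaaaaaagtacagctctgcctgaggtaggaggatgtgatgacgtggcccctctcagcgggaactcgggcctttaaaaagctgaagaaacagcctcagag
The E box was found in 3 of the 5 windows of 250 bases (Cd79a, Fcrla and Cd22), against 17.2% of the 32851 RefSeq promoter windows. The PU box was found in 2 (Cd79a and Fcrla), against 23.3%. In Cd79a the E box began at position -154 and the PU box at -140 relative to the start site, and in Fcrla at -69 and -37. The letters CCCNNGGG, used for EBF1, were found in the Cd22 window alone of the 5, against 11.8% of all windows, and the octamer ATGCAAAT in none, against 1.60%. No 2 of these matches overlapped. The Cd22 and Pax5 windows lay wholly inside the annotated gene and began in an exon. A match is a string of letters and was not examined for binding.

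The antigen receptor genes were low in control kidneys and highest in knockout 2. Cd79a (chromosome 7, 25682400 to 25687216, plus strand, mm9) was at 0.497, 0.587 and 0.960 CPM in controls 1 to 3 and at 1.57, 8.37 and 2.07 CPM in knockouts 1 to 3. All 3 knockouts lay above all controls. Knockout 2 was the highest library for all 9 members, as it was for 23.4% of all genes tested. The Cd79a means were 0.681 ± 0.245 and 4.003 ± 3.79 CPM (SD, n = 3 each), with a log2 fold change of 2.56 (SE 0.74; edgeR's quasi-likelihood test, Benjamini-Hochberg adjusted p = 0.0549). Its partner Cd79b (chromosome 11, 106172655 to 106176076, minus strand) was at 2.24, 1.29 and 2.28 CPM in controls and 2.84, 9.78 and 5.74 CPM in knockouts. The groups did not overlap, and the log2 fold change was 1.66 (SE 0.51, with adjusted p = 0.0622 in edgeR). Neither chain passed the threshold of 0.05.

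Blk (chromosome 14, 63991674 to 64036024, minus strand), a kinase that acts on these chains, was the single member called higher. It passed the filter on low counts through the knockouts, since all 3 controls had fewer than the minimum count of 10, so it could enter the test only by being high there. It was at 0.348, 0.294 and 0.420 CPM in controls and 0.883, 4.06 and 1.61 CPM in knockouts, with no overlap. Knockouts 1 and 3 were at 2.50 and 4.54 times the control mean of 0.354 CPM. The log2 fold change was 2.61 (SE 0.65, with adjusted p = 0.0411 in edgeR). It rested on few reads, with 7, 5 and 7 counts in controls against 18, 81 and 21 counts in knockouts. Blk had adjusted p-values between 0.0778 and 0.137 without any 1 of the controls, without knockout 2 or without knockout 3, and 0.00907 without knockout 1 (edgeR).

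The surface receptors were also highest in knockout 2. Cd22 (chromosome 7, 31650421 to 31665361, minus strand), the inhibitory lectin of B cells, was at 0.795, 0.470 and 0.840 CPM in controls and 1.32, 7.52 and 2.14 CPM in knockouts. Its groups did not overlap, and its log2 fold change of 2.38 (SE 0.72) did not pass (edgeR, adjusted p = 0.0606). Ms4a1 (chromosome 19, 11324654 to 11340669, minus strand), which encodes CD20, was nearly equal in the controls at 0.547, 0.529 and 0.540 CPM. In knockouts it was at 0.539, 3.91 and 1.15 CPM, so knockout 1 lay within the control range and the groups overlapped. Its log2 fold change was 1.79 (SE 0.74, with adjusted p = 0.123 in edgeR), and 0.61 without knockout 2. Fcrla (chromosome 1, 172847707 to 172857714, minus strand), an intracellular Fc receptor-like protein of B cells, had 1, 0 and 6 counts in controls and 6, 38 and 7 in knockouts. Knockout 2 alone stood well clear of control 3 in Fcrla. The gene overlaps a pseudogene on its own strand, and Ms4a1 a non-coding gene on the opposite strand, so both values are uncertain: reads shared with a pseudogene can be lost, and the strand setting of the counting is not given in the sources used here.

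The transcriptional regulators were at the edge of detection in controls. Pax5 (chromosome 4, 44544017 to 44724318, minus strand) had 1, 2 and 2 counts in controls and 6, 17 and 5 in knockouts. In CPM these were between 0.0497 and 0.12 in controls and 0.294, 0.852 and 0.383 in knockouts, with no overlap. Pax5 also overlaps an antisense transcript and a miRNA gene. Pou2af1 (chromosome 9, 51021795 to 51048184, plus strand) spread widely, at 0.298, 0.235 and 0.480 CPM in controls and 0.490, 8.32 and 1.61 CPM in knockouts. Knockout 1, at 10 counts, was level with control 3, at 8 counts. Knockout 2, at 166 counts, was 24.7 times the control mean and 7.94 times the mean of the other two knockouts. Fcrla, Pax5 and Pou2af1 did not pass the filter on low counts. With no filter their log2 fold changes were 2.72, 2.36 and 3.33 (edgeR, adjusted p = 0.143, 0.0735 and 0.0672), and none of the 3 was called.

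Mzb1 (chromosome 18, 35806920 to 35809021, minus strand) was above all controls in knockout 2 alone. It was the highest member per length in controls, at 2.49, 1.47 and 3.48 CPM, and was at 1.62, 8.17 and 1.68 CPM in knockouts. Knockouts 1 and 3 therefore lay within the control range. The log2 fold change was 0.63 (SE 0.71, with adjusted p = 0.539 in edgeR), and it turned to -0.58 without knockout 2. Within each library Mzb1 had 5, 2.50 and 3.62 counts per count of Cd79a in controls, but 1.03, 0.976 and 0.815 in knockouts. This ratio did not overlap between the groups. It was chosen after the data were seen, and Cd79a passed the filter through the knockouts, so the separation is not read as support. An exact two-sided permutation test of the log2 ratio gave p = 0.1, the smallest that 3 against 3 libraries allow, and an adjusted p of 0.4 over the 6 single-gene ratios examined.

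**Figure D1:**
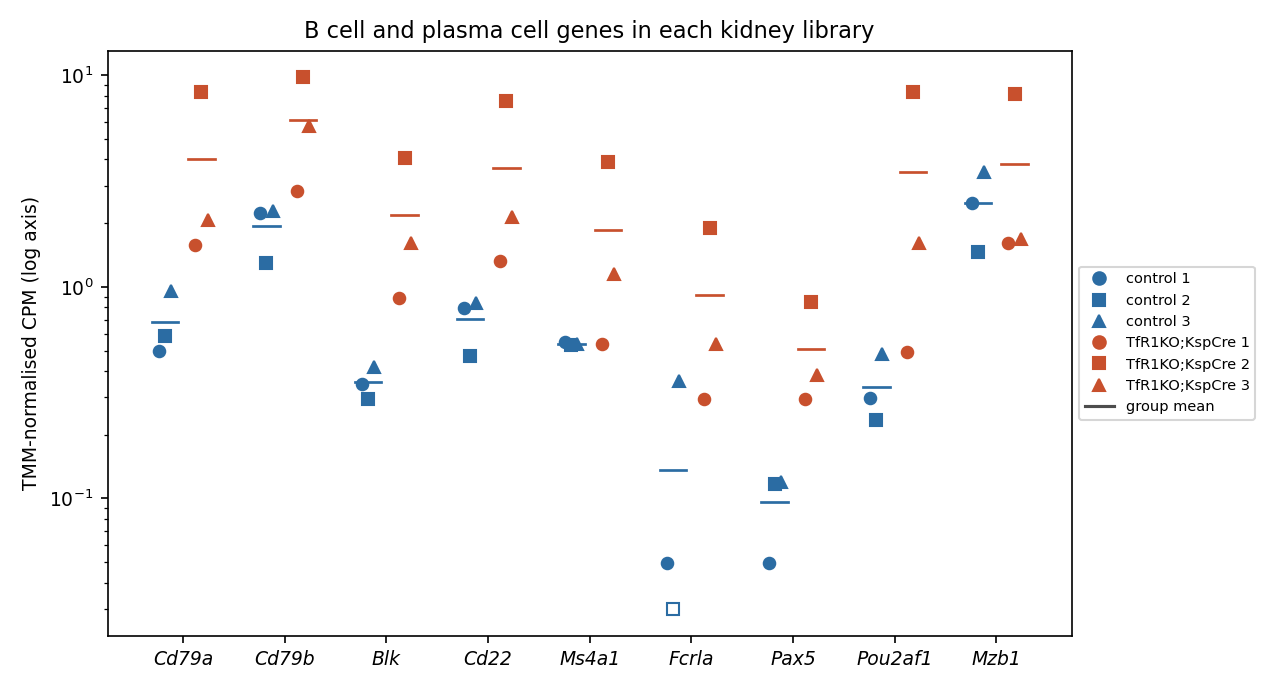
TMM-normalised CPM (log axis) of the 9 genes in each of the 3 control (blue) and 3 TfR1KO;KspCre (red) libraries, with symbols for the replicate number and lines for group means; the open symbol at the bottom marks 0 counts of Fcrla in control 2. Knockout 2 is the highest library for all 9 genes, and Ms4a1, Fcrla and Mzb1 overlap between groups.

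Across the 9 genes, 6 passed the filter and 1 of these 6 was called higher, where 10.6% of all 15171 genes tested were called higher. No member was called lower. Of these 6, 4 (Cd79a, Ms4a1, Cd22 and Blk) passed the filter through the knockouts, which they could do only by being high there, and Cd79b and Mzb1 passed in both groups, so no count or median over the 6 is read as support. With at least 10 counts required in every library only Cd79a, Cd79b and Mzb1 were tested, and 0 members were called (edgeR), 2 with an unadjusted p under 0.05. All knockouts lay above all controls in 6 of the 9 members whether tested or not, where this held for 23.8% of all genes tested. As a description, the median log2 fold change of the 6 was 2.08, against 0.02 over all genes tested, and 1.21 without knockout 2. The 2 members that passed in both groups were at 1.66 (Cd79b) and 0.63 (Mzb1).

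The number of members called moved with the library left out and with the tool. Without knockout 1, the library between the groups, 8 members were tested and 6 were called higher (Cd79a, Cd79b, Ms4a1, Cd22, Blk and Pou2af1), where 18.0% of all genes tested were called higher (edgeR). Without knockout 2 the log2 fold changes of Cd79a, Cd79b, Cd22 and Blk were 1.41, 1.13, 1.28 and 1.78, and 0 members were called (edgeR), while 4 had an unadjusted p under 0.05. Without control 2, Cd79a, Cd79b, Cd22 and Blk had log2 fold changes of 2.45, 1.43, 2.15 and 2.48, and 0 members were called, 4 with an unadjusted p under 0.05. Without control 1, control 2 or control 3 no gene of the whole table was called (edgeR), with between 4270 and 4823 at an unadjusted p under 0.05, so none of the calls named below held when a control was left out. Without knockouts 2 and 3, 73 and 2 genes of the table were called, and Tnfsf13b and Ltb, described below, were still called without knockout 2 (edgeR, adjusted p = 0.0486 and 0.0442). DESeq2's Wald test called Cd79a, Cd79b, Cd22 and Blk, 4 of 6, where it called 17.1% of all genes tested higher.

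**Figure D2:**
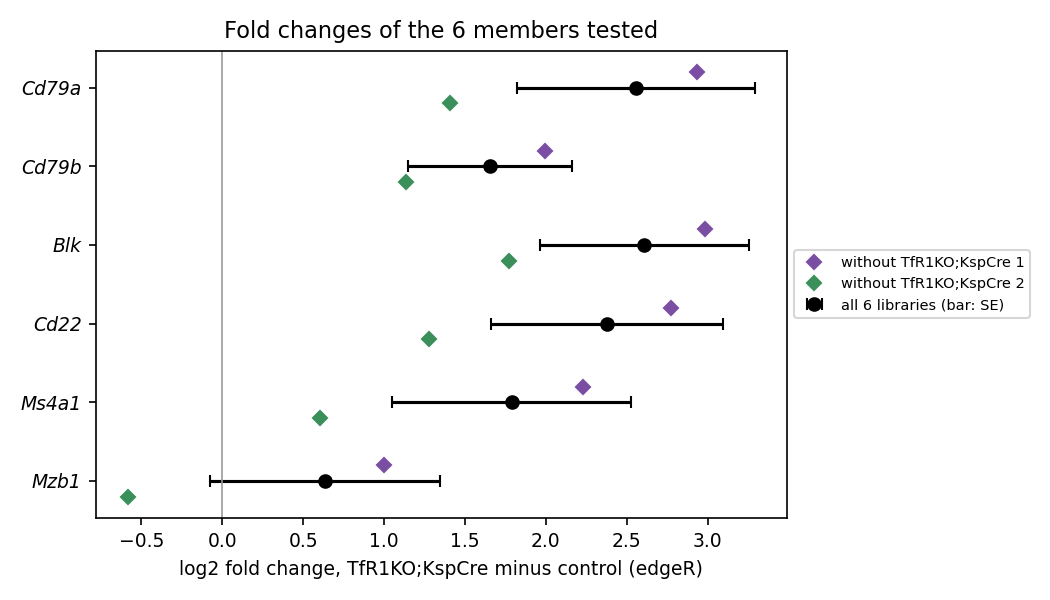
Log2 fold change (TfR1KO;KspCre minus control, edgeR) of the 6 members tested, with all 6 libraries (black, bars are SE) and without knockout 1 (purple) or knockout 2 (green). For all 6 genes the value without knockout 2 is the lowest of the 3, and for Mzb1 it lies below 0.

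Levels were compared between genes only per length, as CPM per kilobase of merged exons. In controls the order of mean levels was Mzb1 (2.74 ± 1.11), Cd79b (1.35 ± 0.39), Cd79a (0.468 ± 0.168), Ms4a1 (0.213 ± 0.00367), Cd22 (0.163 ± 0.0468), Blk (0.143 ± 0.0256), Pou2af1 (0.132 ± 0.0496), Fcrla (0.0782 ± 0.112) and Pax5 (0.028 ± 0.0116; SD, n = 3 each). The ranges of neighbours did not overlap from Mzb1 down to Cd22. Those of Cd22, Blk, Pou2af1 and Fcrla overlapped, as did those of Fcrla and Pax5. In knockout 2, Mzb1 was again first at 9.03 CPM per kilobase, followed by Cd79b at 6.83, Cd79a at 5.75 and Pou2af1 at 3.24. In knockouts 1 and 3 Cd79b was first, at 1.99 and 4.01 CPM per kilobase, ahead of Mzb1 at 1.79 and 1.86.

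Among other genes of B cells, 24 were listed and 22 tested, of which 21 had a log2 fold change above 0. Of the 22, 6 rose (Cd37, Cd72, Spib, Siglecg, Pou2f2 and Ciita), with 0 called lower, where 10.6% of all genes tested were called higher. Like Blk, 2 of the 6 (Spib and Siglecg) passed the low-count filter through the knockouts. The median log2 fold change was 2.04, or 1.11 without knockout 2. All knockouts lay above all controls in 15 of the 22, where this held for 23.8% of all genes tested. Others of the 22, such as Fcrl1 and Bank1, also passed the filter through the knockouts, so these counts are not read as support. Spib, a transcription factor of B cells and plasmacytoid dendritic cells, was at 0.348, 0.411 and 0.480 CPM in controls and 1.72, 6.37 and 2.07 CPM in knockouts, a log2 fold change of 3.03 (SE 0.62, with adjusted p = 0.0322 in edgeR) and of 2.18 without knockout 2. Cd72, an inhibitory receptor, had a log2 fold change of 2.16 (SE 0.42, with adjusted p = 0.0305 in edgeR). Ciita, which switches on MHC class II genes in B cells and other antigen-presenting cells, had one of 2.20 (SE 0.38, with adjusted p = 0.0286 in edgeR). Cd37, Pou2f2 and Ciita are also used by other leukocytes.

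Cr2, the complement receptor of mature B cells, was not called, at 2.34, 2.35 and 3.36 CPM in controls and 3.73, 1.90 and 0.995 CPM in knockouts. The log2 fold change of Cr2 was -0.26 (SE 0.50, with adjusted p = 0.723 in edgeR). It was -0.87 without knockout 1 and 0.07 without knockout 3. Its highest library was knockout 1.

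Signalling genes downstream of the antigen receptor were tested as a further list, and most of them also serve other leukocytes. Of 17 tested, 12 rose and 0 fell, where 10.6% of all genes tested were called higher. The median log2 fold change of the 17 was 1.65. Of the 12, 1 passed the filter through the knockouts. Bcl10 and Malt1, which act together in signalling to NF-kB, were not called, with log2 fold changes of 0.49 and -0.0021. The kinase Syk was at 7.41, 5.34 and 8.28 CPM in controls and 14.1, 37.1 and 16.2 CPM in knockouts, and rose by 1.68 on the log2 scale (SE 0.41). The adaptor Pik3ap1 was at 1.09, 0.881 and 0.780 CPM in controls and 3.38, 15.04 and 5.89 CPM in knockouts, and rose by 3.13 (SE 0.60). Without knockout 2 these were 1.11 and 2.32, and neither was called (edgeR, adjusted p = 0.0806 and 0.0596). Cd81, a tetraspanin with wide expression, had a log2 fold change of -0.11 (SE 0.17, with adjusted p = 0.679 in edgeR).

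Among plasma cell genes, Jchain was far higher in knockout 2 than elsewhere. It encodes the chain that joins secreted IgM and IgA, and was at 1.69, 6.64 and 11.3 CPM in controls and 17.0, 312.8 and 16.8 CPM in knockouts. All knockouts lay above all controls, but knockout 2 held 18.5 times the mean of the other two. The log2 fold change was 4.15 (SE 1.37, with adjusted p = 0.0731 in edgeR), and 1.37 without knockout 2. The plasma cell receptor Tnfrsf17 had 1, 2 and 4 counts in controls and 2, 17 and 1 in knockouts, too few to pass the filter.

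The plasma cell list without the members was mixed. Of 13 listed, 11 were tested, 1 rose (Sdc1) and 0 fell, where 10.6% of all genes tested were called higher. The median log2 fold change of the 11 was 0.07. Sdc1, which encodes syndecan-1 of plasma cells and also of epithelia, was at 29.8, 31.6 and 20.9 CPM in controls and 78.7, 180.2 and 142.8 CPM in knockouts (log2 fold change 2.29, SE 0.33, with adjusted p = 0.0271 in edgeR). Prdm1, the regulator of plasma cell fate, had a log2 fold change of 0.60 (SE 0.33, with adjusted p = 0.218 in edgeR), and Irf4 one of 1.95 (SE 0.75, with adjusted p = 0.105 in edgeR). That of Irf4 was 1.22 without knockout 2 and 2.96 without control 3. Xbp1, Txndc5 and Sec11c, which serve secretion in many cells, had log2 fold changes of 0.07, 0.06 and 0.03. Ell2, an elongation factor used in antibody secretion, had all knockouts below all controls, at 44.6, 65.2 and 53.7 CPM in controls and 38.6, 42.9 and 34.5 CPM in knockouts. It was not called (log2 fold change -0.50, SE 0.18, with adjusted p = 0.0876 in edgeR). No row of the tables was an immunoglobulin heavy or light chain gene, so antibody transcripts were not analysed here.

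Signals that attract B cells or keep them alive were measured in the same kidneys. Of 15 listed, 8 were tested, 3 rose (Tnfsf13b, Ltb and Cd40) and 0 fell, where 10.6% of all genes tested were called higher. Tnfsf13b encodes BAFF, the survival factor of mature B cells. It was at 1.79, 2.11 and 2.28 CPM in controls and 8.88, 41.8 and 9.95 CPM in knockouts, with no overlap (log2 fold change 3.29, SE 0.67, with adjusted p = 0.0316 in edgeR), and the log2 fold change was 2.19 without knockout 2. Ltb, a lymphotoxin chain of lymphocytes, rose by 3.51 (SE 0.48), and Cd40, the receptor for T cell help, by 1.42 (SE 0.32) on the log2 scale. Cxcl13, the chemokine that draws B cells into follicles, was at 0.696, 0.0587 and 0.960 CPM in controls and 0.441, 28.7 and 6.20 CPM in knockouts. Knockout 1 was within the control range, and Cxcl13 was not called (log2 fold change 4.35, SE 1.45, with adjusted p = 0.0755 in edgeR). Without knockout 2 its log2 fold change was 2.49. Tnfsf13, which encodes the related factor APRIL, had a log2 fold change of -0.36 (SE 0.55, with adjusted p = 0.653 in edgeR).

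**Figure D3:**
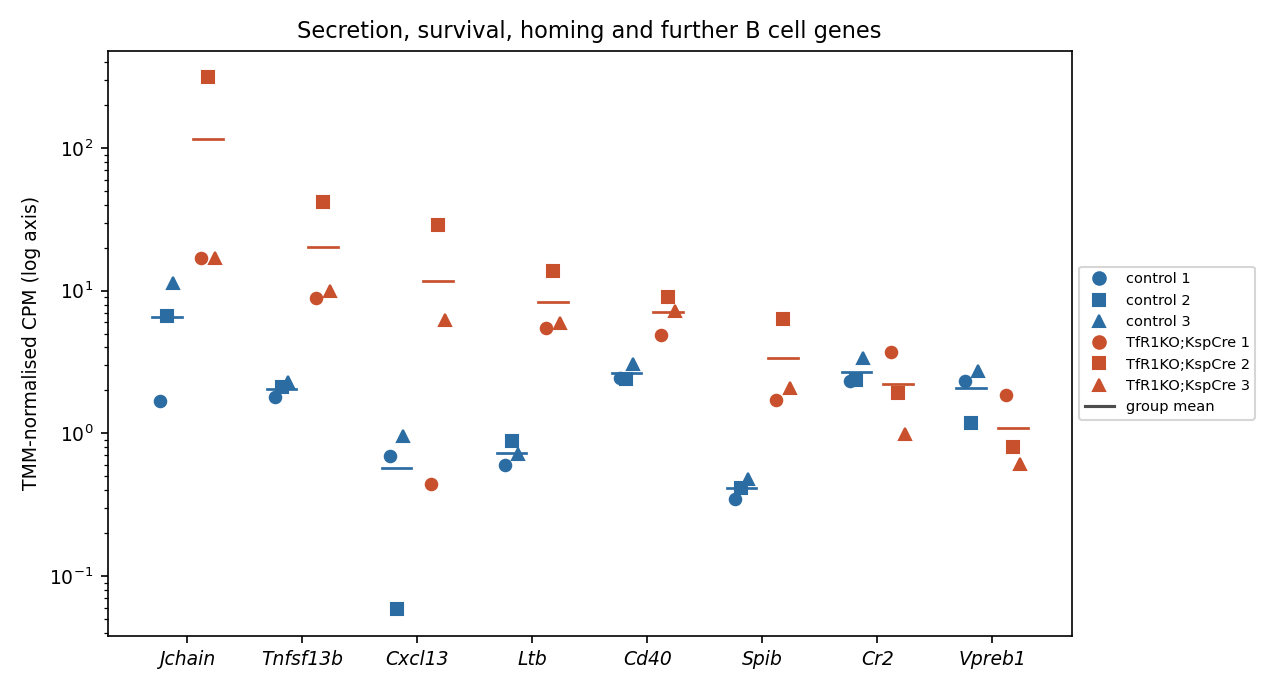
TMM-normalised CPM (log axis) of 8 further genes in the same libraries, with lines for group means. Jchain and Cxcl13 are far higher in knockout 2 than in the other knockouts, whereas Tnfsf13b, Ltb, Cd40 and Spib have all 3 knockouts above all controls, and Cr2 and Vpreb1 overlap.

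Of 7 precursor B cell genes 2 were tested and 1 was called higher (Il7r), and of 6 germinal centre genes 3 were tested and 1 was called higher (S1pr2), with 0 called lower. The share called higher over all genes tested was 10.6%. Il7r, a cytokine receptor of precursor B cells and of T cells, was at 0.249, 0.881 and 0.420 CPM in controls and 2.40, 22.7 and 5.74 CPM in knockouts, and was called with a log2 fold change of 4.31 (SE 0.97, with adjusted p = 0.0349 in edgeR), having passed the filter through the knockouts. It was 2.96 without knockout 2 and 4.92 without control 2. Rag1 and Vpreb2 were listed at 0 in all libraries, and Rag2 and Dntt had at most 2 counts in any. Vpreb1 was at 2.34, 1.17 and 2.76 CPM in controls and 1.86, 0.802 and 0.612 CPM in knockouts, a log2 fold change of -0.91 (SE 0.54, with adjusted p = 0.250 in edgeR). Gcsam, a signalling protein of germinal centre B cells, had 41 counts in knockout 2 and at most 11 in the other libraries. Bcl6 had a log2 fold change of -0.01 (SE 0.21, with adjusted p = 0.969 in edgeR). S1pr2, a receptor that holds B cells in germinal centres and is also found in other cells, rose by 1.801 on the log2 scale (SE 0.43, with adjusted p = 0.0384 in edgeR), and by 1.215 without knockout 2.

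Markers of other leukocytes were higher in the same knockouts, and their part in the values above was not tested. The summed level of 10 T cell markers was 3.64, 10.8 and 3.41 times the control mean in knockouts 1 to 3. It ranged from 6.71 to 9.84 CPM in controls and from 27.9 to 88.3 CPM in knockouts. That of 5 pan-leukocyte markers was 3.61, 9.85 and 4.66 times, from 41.0 to 58.2 CPM in controls and from 174.0 to 475.5 CPM in knockouts. That of 8 macrophage markers was 2.32, 7.02 and 2.99 times, from 171.3 to 183.2 CPM in controls and from 406.8 to 1233 CPM in knockouts. None of these 23 markers had 0 counts in any library. The 9 B cell and plasma cell genes were at 1.36, 7.29 and 2.33 times the control mean. Dendritic cell markers summed to 2.72, 6.96 and 3.69 times and neutrophil markers to 0.985, 3.51 and 1.70 times the control mean. Knockout 2 was the highest library in each of these sums. By gene, 7 of 10 T cell markers, 7 of 8 macrophage markers and 5 of 5 pan-leukocyte markers were called higher and 0 lower. Over all genes tested 10.6% were called higher. Of the 7 T cell markers called, 5 passed the low-count filter through the knockouts, as did Cd2 and Cd28, which were not called. The count of T cell markers called is therefore not read as support.

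**Figure D4:**
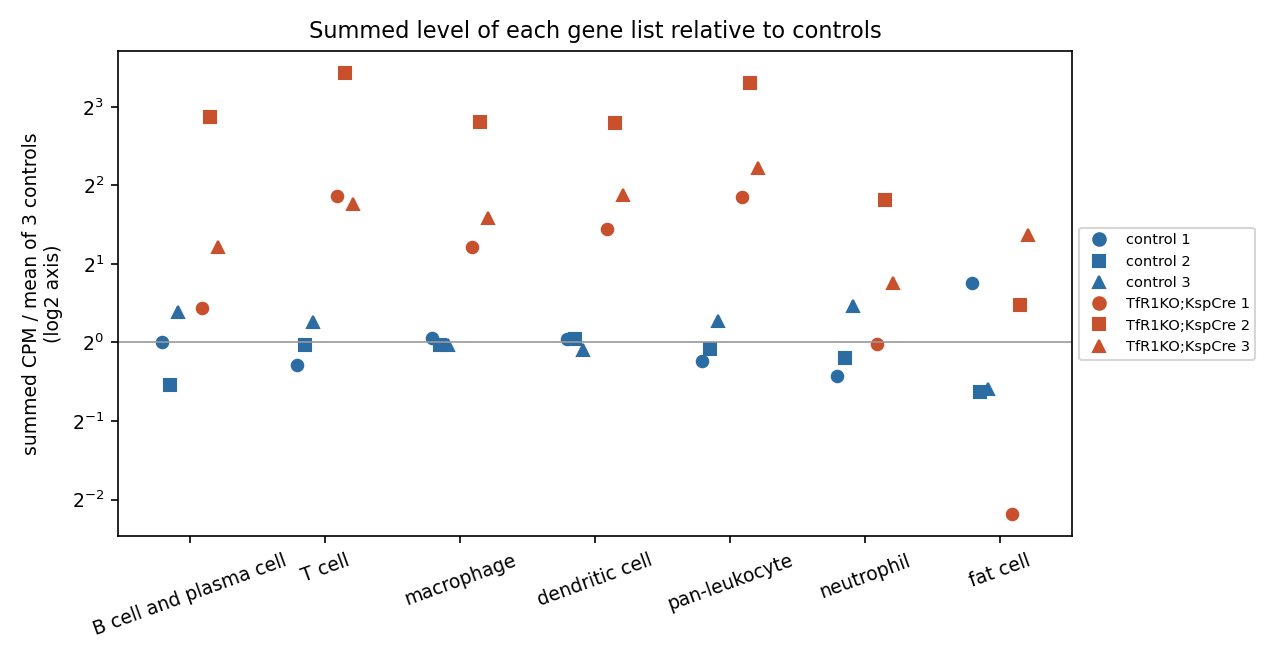
Summed CPM of each gene list divided by the mean of the 3 controls (log2 axis), per library. Knockout 1 reaches 1.36 for the B cell and plasma cell genes and 3.61 for the pan-leukocyte markers, while the fat cell markers do not follow the order of the libraries.

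Set against other leukocyte transcripts of the same library, the summed member genes in knockouts stayed below the highest control. The summed counts of the 9 genes per count of Ptprc, which encodes the pan-leukocyte marker CD45, came to 0.568, 0.409 and 0.664 in the 3 control libraries. They came to 0.269, 0.421 and 0.398 in the 3 knockout libraries, and the groups overlapped. Per count of the T cell markers they came to 1.09, 0.625 and 0.963 in controls but to 0.331, 0.599 and 0.607 in knockouts, all knockouts below all controls. Of the summed counts, Mzb1 made up 50 of 147, 25 of 85 and 58 of 158 in controls. In knockouts it made up 33 of 201, 163 of 1055 and 22 of 221. Whether the groups separate without Mzb1 was not tested, so the separation is not read as a trait of all 9 genes. Per count of the macrophage markers the 9 genes came to 0.0399, 0.0291 and 0.0551 in controls and 0.0242, 0.0429 and 0.0322 in knockouts. There the groups overlapped. Cd79a alone per Ptprc was 0.0513 ± 0.0146 in controls and 0.0527 ± 0.0124 in knockouts (SD, n = 3 each; exact two-sided permutation test of the log2 ratio, p = 0.8). The log2 ratio of Cd79a to Cd3e, a chain of the T cell receptor complex, was lower by 0.78 in knockouts, and that to C1qa of macrophages by 0.80, with p = 0.2 each in the same exact test. Adjusted over the 6 ratios these were 0.4. The smallest p that this exact test allows with 3 against 3 libraries is 0.1, so no ratio could pass 0.05.

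Fat cell markers were highest in another library. The sum over the 5 listed was 122.5, 47.1 and 48.3 CPM in controls and 15.9, 100.7 and 187.3 CPM in knockouts. It was highest in knockout 3, with 0 of the 5 called in edgeR or DESeq2 and 1 (Lep, lower in knockouts) at an unadjusted p under 0.05. All 6 haemoglobin rows were listed at 0 in every library and so give no measure of blood, and the erythroid gene Alas2 was between 10.2 and 16.2 CPM in controls and between 7.41 and 15.5 CPM in knockouts.

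The genes whose pattern over the 6 libraries came closest to the mean of the 6 tested members were 5430427O19Rik, Kcnk13, Csf3r, Gda and Lax1. Likeness was the root mean square difference of centred log2 CPM, which was between 0.133 and 0.202 for these 5 and between 0.219 and 0.66 for the members themselves. Mzb1 was the member farthest from that mean. Lax1, an adaptor of lymphocytes, was at 0.795, 0.822 and 1.5 CPM in controls and 1.23, 8.07 and 2.37 CPM in knockouts. Csf3r, the receptor for granulocyte colony-stimulating factor, was at 2.93, 2.17 and 3.48 CPM in controls and 4.51, 15.2 and 5.74 CPM in knockouts. Like 5 of the 6 tested members, these 5 genes were not called.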

How the data were processed

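RNA-Seq counts of 3 control and 3 TfR1KO;KspCre kidneys were used, grouped by the sample titles. Per the methods and the submitters' processing notes, single-end reads of poly-A RNA were called with CASAVA 1.8.2, trimmed with Trimmomatic, aligned to mm9 with TopHat2 2.0.11 and, if uniquely mapped, counted per gene with HTSeq; the annotation and strand setting are not given in the sources used here. The authors deposited unnormalised counts, in 1 table per group. Reads from near-identical genes are lost where only unique alignments count.

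The members and gene lists were chosen with earlier results of these data known. Genes were kept by edgeR's filterByExpr (minimum count 10, minimum total 15), leaving 15171 of 24422. A gene passed through the knockouts where all 3 knockouts but fewer than 3 controls reached the filter's cutoff. TMM normalisation and edgeR 4.0.16's quasi-likelihood test in its default version were run on all 6 libraries without covariates in R 4.3.3, with Benjamini-Hochberg adjustment over all genes tested. Called means an adjusted p under 0.05. The SE is the log2 fold change divided by the square root of F. CPM are TMM-normalised, and log2 CPM used a prior count of 2. The pipeline was tested on simulated data. Replicates of a group differed beyond sampling noise (chi-square per degree of freedom 55.1 to 134), and each counted as 1 sample. The range of depth is given with the results, and knockout 3 was the shallowest library.

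Named genes were all members, Tfrc, genes of the B cell, plasma cell, signalling, survival, precursor and germinal centre lists, the first 3 of each other list, and the 5 genes nearest in pattern. Alas2, C1qa, Cd2, Cd28, Lep, Nkg7, the sex-linked genes and the within-library ratios were chosen after the data were seen. Some genes of the lists are counted but not reported by name here. The methods of the study used DESeq2, which was run here as an alternative. Alternatives were DESeq2 1.42.0 size factors and Wald test, limma 3.58.1 voom, library size alone, other filters and thresholds, the newer quasi-likelihood version, a replicate block and leaving out each library.

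Coordinates and exon lengths are from GENCODE M1 (mm9). Mzb1 was matched there by its older name, 2010001M09Rik. Upstream sequences came from RefSeq (GRCm38.p6) and were placed on mm9 by exact match.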

Additional observations from a re-analysis of the deposited data

How the results depend on the processing

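The number of members called was 1 with all libraries and moved with the processing. It was 4 with library size alone, with DESeq2's Wald test and at an adjusted p under 0.1. It was 0 with at least 10 counts in every library, with limma-voom and with the replicate block, where 2, 4 and 2 members had an unadjusted p under 0.05. Over the fits that left out 1 library it ranged from 0 to 6. It stayed at 1 with DESeq2 size factors, no filter, the newer quasi-likelihood version and a 2-fold threshold. Over all genes tested the calls numbered 2612, against 4882 with the Wald test, 5034 at an adjusted p under 0.1, 0 with the replicate block (5432 with an unadjusted p under 0.05) and from 0 to 5332 with 1 library left out. The 3 fits without a control gave 0 calls in edgeR, with between 4270 and 4823 genes at an unadjusted p under 0.05. The log2 fold change of Mzb1 was reversed without knockout 2, at -0.58, and ranged up to 0.998 with another library left out. The causes were not tested. Without TMM, on library size only, all genes moved up by a median of 0.27 (log2), which turned the sign of Malt1, Cd81 and Bcl6 and gave 2979.0 calls higher and 661.0 lower, against 1604 and 1008, with every tested member above 0 in both. For the replicate block, the deviations of same-numbered libraries correlated at -0.129, 0.0116 and 0.215, and the numbers were not taken as pairs. Depth limits Blk, Pax5, Fcrla and Pou2af1, which had at most 8 counts in any control, the single called member among them.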

Other observations

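Ly6d, which marks committed lymphoid precursors and also some epithelia, was at 50.4 CPM in knockout 2 and between 1.53 and 6.58 CPM in the other 5 libraries. It was not called, with a log2 fold change of 2.03 (SE 1.17, with adjusted p = 0.240 in edgeR), and -0.55 without knockout 2.

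Of 7 dendritic cell markers 6 were tested and 4 rose, where 10.6% of all genes tested were called higher. Among the 4 were Itgax, with a log2 fold change of 3.84, and Flt3, with one of 2.62. Flt3 passed the low-count filter through the knockouts, with 5, 14 and 8 counts in controls. It was at the threshold (edgeR, adjusted p = 0.0497), and its call was lost with DESeq2 size factors (0.0501) and with no filter (0.0508), which left 3 calls. Without knockout 2 its log2 fold change was 1.82. Of 6 neutrophil markers 4 were tested, and of 5 NK cell markers 2. None of these was called in the main edgeR fit of all 6 libraries, while Csf3r and Nkg7 had an unadjusted p under 0.05 and were called by DESeq2's Wald test. Without knockout 1, edgeR called 3 neutrophil markers and 1 NK cell marker, where 18.0% of all genes tested were called higher. On library size alone it called 1 neutrophil marker. Nkg7 had 15, 9 and 13 counts in controls and 35, 99 and 13 in knockouts.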
